A study of Mus musculus with 67 samples.

Results

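Expression of 10 genes of the forkhead family of transcription factors was examined in mouse forelimb buds with and without Gli3. The genes were Foxc1, Foxc2, Foxd1, Foxd2, Foxf1, Foxf2, Foxl1, Foxp1, Foxp2 and Foxp4, found by name among the 46983 gene IDs of the RNA-seq tables, and each name matched 1 gene ID. The tables held 14 libraries in 4 groups. WT buds were of the Swiss Webster strain, and Gli3-/- buds carried the Gli3 Xt-J allele, which the study kept on that strain. At E9.25 (21 to 23 somites), before Hedgehog (HH) signaling begins in the bud, whole forelimb buds were taken, with 3 WT and 4 Gli3-/- libraries of about 4 pooled pairs each. At E10.5 (32 to 35 somites) only the anterior portion of forelimb buds was taken, with 4 WT and 3 Gli3-/- libraries of 2 pairs each by the labels, where the study's methods give a larger pool, so that stage and dissection cannot be told apart. Replicates are pools of embryos, and p-values measure the spread between these pools.

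Forkhead factors share a winged-helix domain that binds DNA. Foxf1, Foxf2 and Foxl1 are genes of the splanchnic and gut mesenchyme, where Hedgehog ligands from the endoderm are known to induce them. Foxc1 and Foxc2 act in paraxial mesoderm, blood vessels and skeleton, Foxd1 marks the stroma of the kidney, and Foxp1, Foxp2 and Foxp4 are mainly repressors that act in lung, heart and motor neurons. In HH-responsive tissues GLI3 works largely as a repressor that HH signaling removes, and the study asked whether genes become de-repressed when it is lost before and after HH signaling starts.

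Library depth, estimated from the deposited coverage and FPKM values, was 38.07 to 56.82 M reads, and 13276 to 15816 genes per library reached a TPM of 1, TPM being transcript abundance scaled for gene length and library size. Gli3 itself, of which Xt-J removes only part, was 44.2, 15.8 and 44.6 TPM in the E9.25 WT libraries against 14.3 to 20.8 in Gli3-/-, and 73.4 to 89.7 against 38.7 to 40.9 at E10.5. The library labelled E9.25 WT replicate 2 therefore lay within the Gli3-/- range for Gli3, and it was also the shallowest and had the fewest genes. Relative to the other WT libraries, its median log2 difference was -0.55 over 1555 genes spanning 100 kb or more and -0.19 over all genes, and that of WT replicate 1 was 0.41 and 0.19. Its Ptch1, a direct HH target, was 2.48 TPM, below the other WT libraries (5.82 and 8.08) and all Gli3-/- libraries (21.4 to 38.5). Main tests of the forkhead genes that use it are given with and without it. Other results, such as those of Ptch1, neighbors and marker genes, are given only with it.

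To see which forkhead genes moved when Gli3 was lost before HH signaling, WT and Gli3-/- buds were compared at E9.25. Foxf1, Foxd1 and Foxc1 were higher in Gli3-/-, with group means 21.3-fold, 13.1-fold and 3.73-fold those of WT. These were 3 of the 7 genes that passed the filter on low values (TPM of at least 1 in at least 3 libraries), while 0.136% of all 14760 genes tested passed the same threshold, a limma adjusted p under 0.05. Foxd1 passed that filter through its Gli3-/- libraries alone, and Foxf1 through them and 1 WT library, so Foxd1 had to differ and the count is not read against that share.

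Foxf1 (ENSMUSG00000042812.5, mm10 chr8:121084386-121088144, plus strand) was 2.80, 0.22 and 0.49 TPM in the 3 WT libraries. In the 4 Gli3-/- libraries it was 23.7, 28.8, 35.5 and 12.1 TPM. The groups did not overlap, and the lowest Gli3-/- library, replicate 4, was still above the highest WT library, replicate 1. The log2 fold change of TPM + 1 was 3.68 (SE 0.43, limma adjusted p = 0.0125), against a median of 0.23 over all genes tested. Without WT replicate 2 it was 3.35 (adjusted p = 0.0197).

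Foxf2 (chr13:31625816-31631403, plus strand), the close relative of Foxf1, was listed at 0 in the 3 WT libraries. It was 0.93, 0.95, 1.24 and 0.09 TPM in Gli3-/-, again lowest in replicate 4. Only 1 library reached 1 TPM, so Foxf2 was not tested. In the fit without a filter its log2 fold change was 0.80 with an adjusted p of 0.374, in a fit by limma where no gene of 26828 passed and 3542 had an unadjusted p under 0.05. Foxl1 (chr8:121127940-121130644, plus strand), which lies 9.04 kb beyond Foxc2 and 39.8 kb beyond Foxf1, was 0.06 TPM in every WT library and 0 to 0.10 in Gli3-/-. It therefore stayed below the filter while Foxf1, on the same stretch of chromosome, did not.

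Foxd1 (chr13:98354242-98356703, plus strand) was 0.24, 0.24 and 0.31 TPM in WT and 2.89, 4.62, 2.82 and 3.38 TPM in Gli3-/-. Foxd1 has no introns, so coverage can be turned into reads. The WT values stood for coverage by 14 to 20 reads of 100 bases, and the Gli3-/- values for 159 to 244. The groups were far apart, and replicate 4, the lowest for Foxf1 and Foxf2, was second highest for Foxd1. The log2 fold change was 1.79 (SE 0.21, limma adjusted p = 0.0125) and 1.78 without WT replicate 2 (adjusted p = 0.0197).

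Foxc1 (chr13:31806691-31810643, plus strand) was 1.92, 1.42 and 1.19 TPM in WT and 4.56, 7.22, 5.62 and 5.14 TPM in Gli3-/-, with no overlap. The log2 fold change was 1.40 (SE 0.21, limma adjusted p = 0.0397), but the call was lost without WT replicate 2 (1.38, adjusted p = 0.0725). Foxc1 and Foxf2 lie 16.1 and 15.9 Mb from Gli3 on chromosome 13, and Foxd1 lies 82.6 Mb from it. None of the 3 calls was made when WT replicate 3, Gli3-/- replicate 1 or Gli3-/- replicate 3 was left out, and that of Foxc1 was also lost without Gli3-/- replicate 2. Over all 7 libraries left out in turn, the adjusted p ranged from 0.00496 to 0.0923 for Foxf1, from 0.016 to 0.0901 for Foxd1 and from 0.0221 to 0.238 for Foxc1.

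The upstream sequences of the 2 called genes with a RefSeq entry are shown because both rose at E9.25 and GLI3 acts through DNA. Each is the 250 bases before the transcription start (RefSeq, GRCm38.p6, plus strand), at chr13:31806396-31806645 for Foxc1 and chr13:98353995-98354244 for Foxd1, with the CCAAT box (CCAAT, or ATTGG on the other strand) in capitals.
Foxc1: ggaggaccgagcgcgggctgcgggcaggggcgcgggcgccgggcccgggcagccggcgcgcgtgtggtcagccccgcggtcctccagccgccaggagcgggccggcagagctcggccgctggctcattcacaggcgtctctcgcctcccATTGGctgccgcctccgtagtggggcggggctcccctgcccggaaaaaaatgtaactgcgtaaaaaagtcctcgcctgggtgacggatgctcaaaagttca
Foxd1: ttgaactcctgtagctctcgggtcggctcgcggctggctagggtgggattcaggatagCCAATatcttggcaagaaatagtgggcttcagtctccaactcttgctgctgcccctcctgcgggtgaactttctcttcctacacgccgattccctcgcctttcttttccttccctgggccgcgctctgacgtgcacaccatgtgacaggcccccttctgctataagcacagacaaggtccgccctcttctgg
RefSeq entries were found for 6 of the 10 genes: Foxc1, Foxd1, Foxd2, Foxf2, Foxp1 (with more than 1 start) and Foxp4. GACCACCCA, the letters of a strong GLI site, was in none of these windows on either strand, and 0.225% of all 32851 windows of this length held it. TGTTTAC, letters bound by forkhead factors, was also in none of them, and 3.17% of all windows held it. TATAAA, the TATA box, was in none either, against 12.4%. The CCAAT box was in 33.8% of all windows, so that having it did not set Foxc1 and Foxd1 apart. The 2 windows differed in base composition. That of Foxc1 was 70.8% G and C with 29 CpG, more CpG than in 93.2% of windows, and that of Foxd1 was 57.2% with 12 CpG, more than in 66.5%.

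Foxc2 (chr8:121116171-121118895, plus strand), 28 kb from Foxf1, was 1.10, 1.32 and 0.51 TPM in WT and 1.37, 2.24, 2.11 and 1.94 TPM in Gli3-/-. The groups did not overlap, but the 2 nearest libraries were 0.05 TPM apart, and the log2 fold change of 0.57 (SE 0.23) did not pass (limma adjusted p = 0.217), nor did it without WT replicate 2 (0.70, adjusted p = 0.414). Foxd2 (chr4:114906282-114908873, minus strand) was 0.18 to 0.32 TPM in WT and 0.12 to 0.41 in Gli3-/-, with overlapping groups and no test.

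The Foxp genes were the most abundant members, and none of the 3 passed at E9.25 by limma. All 3 had an unadjusted p under 0.05, as did 3247 of all 14760 genes tested. Foxp4 (chr17:47867133-47924645, minus strand) was 41.6, 25.8 and 31.6 TPM in WT and 46.7, 78.2, 68.9 and 52.8 TPM in Gli3-/-. Foxp2 (chr6:14901349-15441977, plus strand) was 3.33, 0.93 and 1.80 TPM in WT and 5.49, 5.85, 5.05 and 4.87 TPM in Gli3-/-. For both genes every Gli3-/- library was above every WT library, with log2 fold changes of 0.88 (SE 0.22, adjusted p = 0.153) for Foxp4 and 1.14 (SE 0.26, adjusted p = 0.147) for Foxp2. Foxp1 (chr6:98925338-99522721, minus strand) was 21.5, 7 and 12.3 TPM in WT and 22.4, 34.9, 26.9 and 15.6 TPM in Gli3-/-, with overlap (log2 fold change 0.90, adjusted p = 0.217). WT replicate 2 was the lowest library for all 3 genes, and Foxp1 and Foxp2 span 597 and 541 kb, among the long genes that were low in it. Without it the log2 fold changes were 0.53 for Foxp1, 0.86 for Foxp2 and 0.72 for Foxp4. With each library's trend over gene span removed they were 0.48, 0.72 and 0.56, and the adjusted p remained above 0.05 for each in both settings. Foxp2 did pass without WT replicate 1 (1.44, adjusted p = 0.0261), and Foxp2 and Foxp4 passed in 1 model of all 14 libraries (adjusted p = 0.0171 and 0.0264).

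Of the 7 members tested at E9.25, 6 had groups that did not overlap, against 13.3% of all genes tested. Among the 6 are Foxd1, which passed the filter through its Gli3-/- libraries alone, and Foxf1, which needed them. This count is therefore not read against that share either. Relative to the median gene, the log2 fold changes were 3.45 for Foxf1, 1.57 for Foxd1, 1.17 for Foxc1, 0.92 for Foxp2, 0.68 for Foxp1, 0.65 for Foxp4 and 0.35 for Foxc2.

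**Figure D1:**
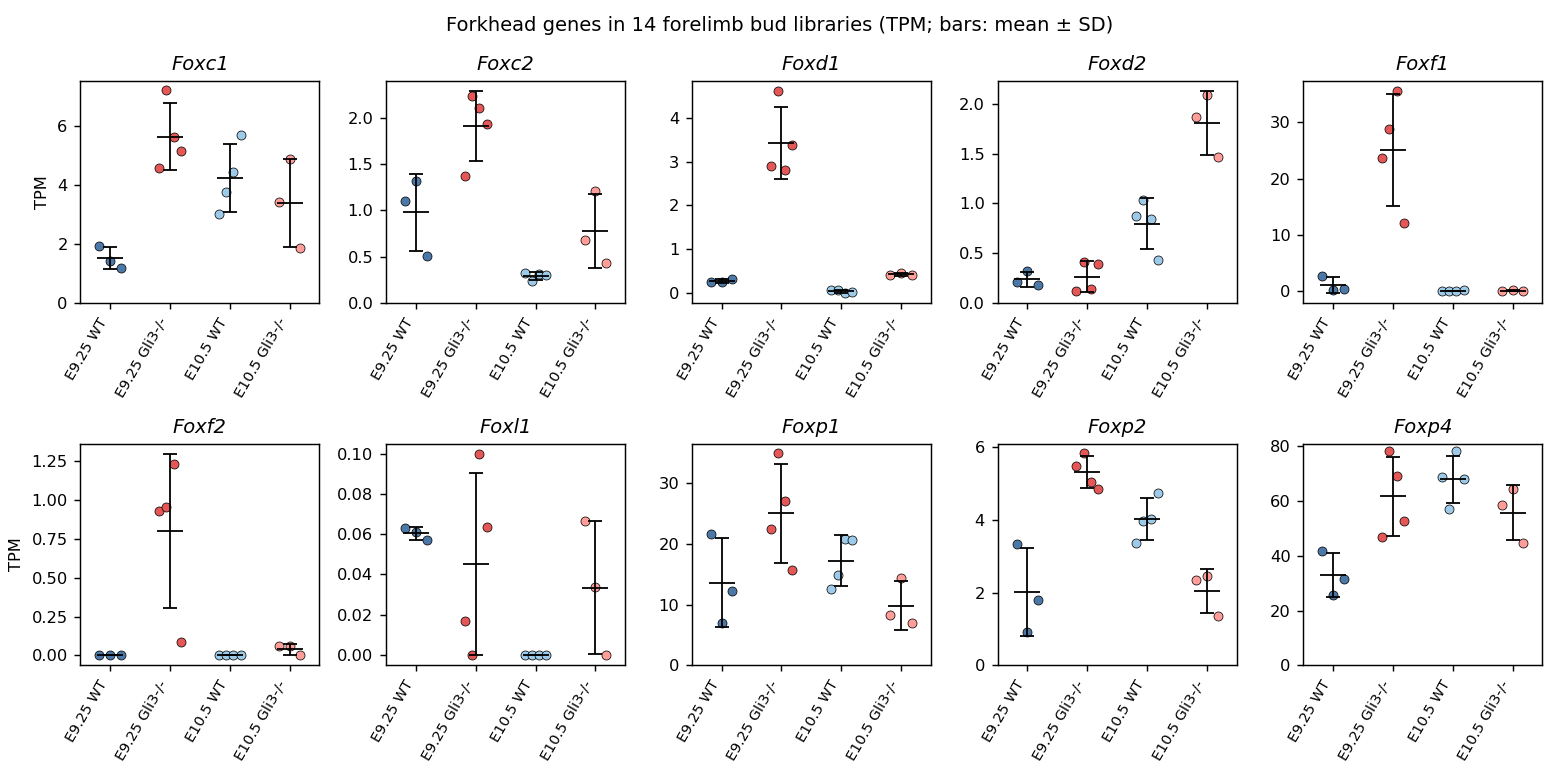
TPM of each of the 10 forkhead genes in each of the 14 libraries, 1 point per library, by group along the horizontal axis, with black bars for the mean ± SD (n = 3, 4, 4 and 3 from left to right). Foxf1 and Foxd1 are higher in every E9.25 Gli3-/- library than in any other library, Foxf2 is 0.93 to 1.24 TPM in 3 of those 4 libraries, and the vertical scale differs from gene to gene.

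The summed level of genes that mark tissue beside the limb was also higher in E9.25 Gli3-/-. The sum over 10 markers of flank, splanchnic and cardiac mesoderm was 66.0, 30.5 and 27.1 TPM in E9.25 WT and 134, 197, 200 and 77.3 TPM in Gli3-/-. WT replicate 1, the highest WT library for Foxf1, was the highest WT library for this sum, and Gli3-/- replicate 4 was the lowest of its group for both. Hand1, Gata4 and Gata6 weighed most in the sum, at 79.1, 41.5 and 39.6 TPM in Gli3-/- replicate 3. Among the markers tested, Isl1 did not follow this order. It was 0.82, 1.06 and 2.68 TPM in WT, lowest in replicate 1, and 3.85, 5.30, 3.65 and 3.84 TPM in Gli3-/-, lowest in replicate 3. Of the 10 markers, 8 were tested, 2 were higher in Gli3-/- (Gata4, 2.87, adjusted p = 0.0128, and Tcf21, 1.53, adjusted p = 0.038) and none was lower, with a median log2 fold change of 1.34 and an unadjusted p under 0.05 for all 8. Over all 14760 genes tested, 3247 had such an unadjusted p by limma. Tcf21, Tbx20 and Isl1 needed their Gli3-/- libraries to pass the filter, so the marker counts are not read against that share. Nkx2-5, a cardiac gene, was at 0 in every library of both groups. By fluorescent in situ hybridization the study saw Foxf1 in lateral plate mesoderm and Ptch1 in the neural tube. It detected neither gene in E9.25 limb buds of either genotype. For its genes higher in Gli3-/- at E9.25, it proposes carried-over flank tissue or older mRNA as possible sources. The part of flank tissue in the Foxf1, Foxf2 and Foxd1 values was not tested here, and in pooled tissue fewer cells of a type and less RNA per cell cannot be told apart. The lists for limb, somite and endothelium had smaller medians. The 7 limb mesenchyme markers had a median log2 fold change of 0.06, the 2 somite markers tested of -0.18 and the 7 endothelial markers of 0.67. By limma none of these was called in either direction, with an unadjusted p under 0.05 for 1 limb, 0 somite and 4 endothelial markers. Foxc1 and Foxc2 are expressed in somites and endothelium, and the endothelial sum was 64.9 to 108 TPM in WT and 119 to 178 TPM in Gli3-/-, without overlap. The somite sum was 17.1 to 20.9 TPM in WT and 17.3 to 23.7 TPM in Gli3-/-, with 4 of the 7 somite markers under 1 TPM in both groups. Gut endoderm markers summed to 1.44 to 4.79 TPM in WT and to 49.7, 5.00, 5.28 and 6.63 TPM in Gli3-/-, where Ttr made up 44 TPM of the sum in replicate 1, and surface ectoderm markers to 147 to 218 and 198 to 340 TPM. The surface ectoderm markers did not move together. Krt8 and Krt18 had log2 fold changes of 1.37 and 1.49, Cdh1, Trp63 and Epcam of 0.43, 0.14 and 0.11, and Fgf8 of -1.31. Intermediate mesoderm markers summed to 1.73 to 3.17 and 4.84 to 9.42 TPM (1 tested, with a larger log2 fold change than the flank median), neural markers stayed at or below 1.26 TPM in every library, and erythroid markers ranged from 6912 to 23430 TPM with overlap. No marker of these 5 lists was called at E9.25 by limma, and 4 had an unadjusted p under 0.05. The part of these tissues was not tested either.

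**Figure D2:**
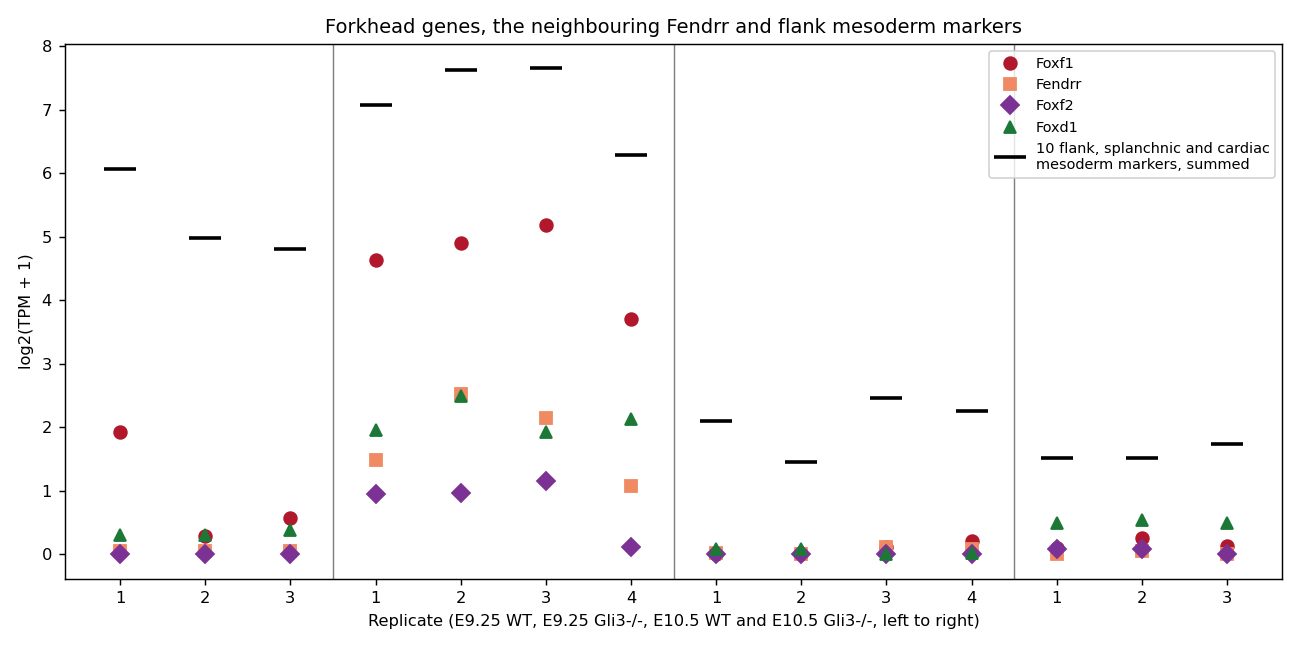
log2(TPM + 1) of Foxf1, Foxf2, Foxd1, the long noncoding RNA Fendrr beside Foxf1, and the sum of 10 flank, splanchnic and cardiac mesoderm markers (black dashes), in the 14 libraries, numbered by replicate within the 4 groups along the horizontal axis. Foxf1 and the marker sum are both highest in E9.25 Gli3-/- replicates 1 to 3 and lower in replicate 4, while Foxd1 is not lower there, and at E10.5 Foxd1 is higher in each Gli3-/- library than in each WT library.

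To see which of them moved once HH signaling had begun, WT and Gli3-/- anterior buds were compared at E10.5. These libraries are separate from those at E9.25. Foxp2 was lower in Gli3-/-, the only call among the 5 members that passed the filter, against 4.77% of all 15654 genes tested. It was 3.36, 3.97, 4.02 and 4.75 TPM in WT and 2.36, 2.45 and 1.36 TPM in Gli3-/-. The groups did not overlap, and the log2 fold change fell by 0.73 (SE 0.17, limma adjusted p = 0.0413). The call was lost whichever of the 7 libraries was left out, with adjusted p from 0.0595 to 0.139.

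The other Foxp genes lay the same way without passing. Foxp1 was 12.6, 14.9, 20.8 and 20.6 TPM in WT and 8.24, 14.4 and 6.90 TPM in Gli3-/- (log2 fold change -0.78, SE 0.24, adjusted p = 0.115), with 1 mutant library inside the WT range. It reached an adjusted p of 0.0324 only when that library, Gli3-/- replicate 2, was left out. Foxp4 was 57 to 78 TPM in WT and 44.5 to 64.2 TPM in Gli3-/- (-0.29, adjusted p = 0.285), with overlap. Foxc1 also overlapped, at 3.01 to 5.71 TPM in WT and 1.86 to 4.87 in Gli3-/- (-0.29, adjusted p = 0.586). Of the 7 limb mesenchyme markers, 4 were lower and 1 higher in these Gli3-/- buds, and their sum was 899 to 1094 TPM in WT and 698 to 764 in Gli3-/-. How far this bears on the Foxp values was not tested.

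Foxd2 lay the other way at E10.5. It was 0.88, 1.04, 0.85 and 0.43 TPM in WT and 1.87, 2.10 and 1.46 TPM in Gli3-/-, without overlap. The log2 fold change of 0.65 (SE 0.17) was just outside the threshold (limma adjusted p = 0.0629). Of the 5 members tested, 2 had groups that did not overlap, against 19.3% of all genes tested. Foxd2 is 1 of these 2 and passed the filter through its Gli3-/- libraries and 1 WT library. The count is therefore not read against that share. The Foxd2 values stood for 27 to 63 reads in WT and 81 to 136 in Gli3-/-. Its opposite-strand neighbor Foxd2os, whose span begins 0.384 kb from that of Foxd2, was 0.56, 0.72, 0.32 and 0.46 TPM in WT and 1.75, 1.39 and 1.93 TPM in Gli3-/-. The log2 fold change of Foxd2os was 0.83 (SE 0.16, adjusted p = 0.0174), but it passed the filter through its Gli3-/- libraries alone and so had to differ. Foxd2 itself passed with eBayes without a trend (adjusted p = 0.04) and in 1 model of all 14 libraries (adjusted p = 0.0435), and a difference between the pair was not tested. At E9.25 Foxd2os was below 0.37 TPM in every library, as low as Foxd2.

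Foxd1 remained higher in Gli3-/- at E10.5, at a far lower level. It was 0.06, 0.06, 0.00 and 0.02 TPM in WT and 0.40, 0.46 and 0.40 TPM in Gli3-/-. These values stood for 0 to 4 reads per WT library and 21 to 28 reads per Gli3-/- library, so the gene was below the filter. In the fit without a filter the log2 fold change was 0.46 (SE 0.04, adjusted p = 0.00712), the only call among the members there. The group means were 12.5-fold apart, a ratio whose WT mean rests on those few reads.

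The remaining members were low in anterior E10.5 buds. Foxc2 was 0.23 to 0.32 TPM in WT and 0.43 to 1.21 in Gli3-/-, without overlap (log2 fold change 0.44, adjusted p = 0.217 without a filter). Foxf1 was 0 to 0.15 TPM in WT and 0.07 to 0.20 in Gli3-/-, so the level of 12.1 to 35.5 TPM in E9.25 Gli3-/- buds had no counterpart here. Foxf2 and Foxl1 were listed at 0 in all 4 WT libraries and did not exceed 0.07 TPM in Gli3-/-. The flank, splanchnic and cardiac markers were also near 0 at E10.5, summing to 1.73 to 4.50 TPM in WT and 1.87 to 2.36 TPM in Gli3-/-, and all 10 were under 1 TPM in Gli3-/-.

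**Figure D3:**
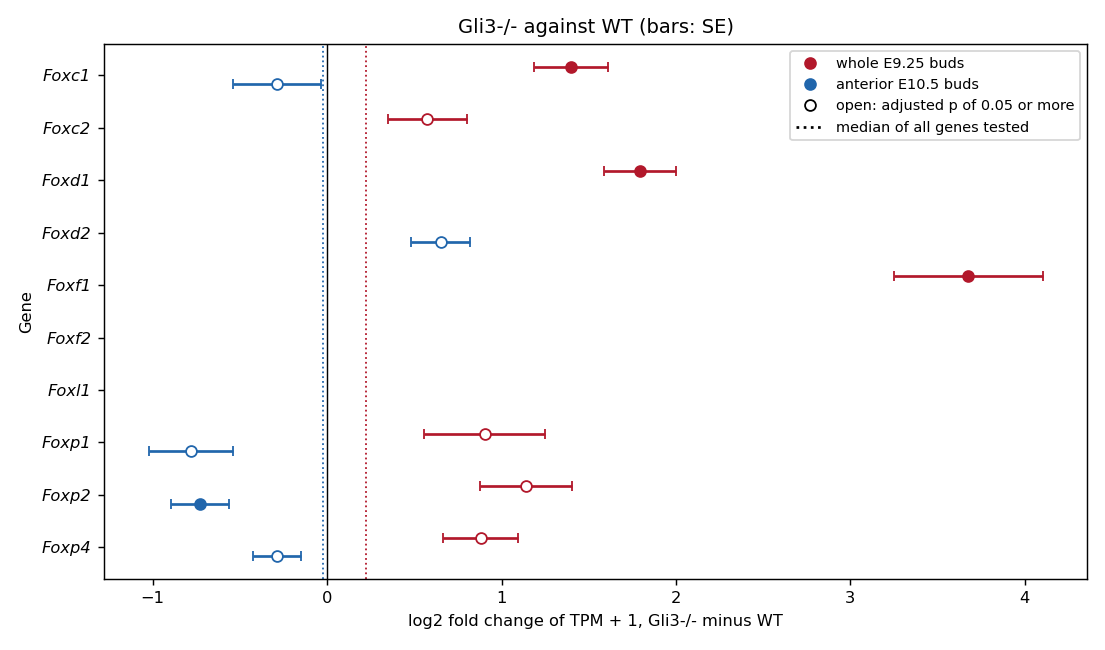
log2 fold change of TPM + 1, Gli3-/- minus WT, with its SE for each member that passed the filter, in whole E9.25 buds (red, n = 3 and 4) and anterior E10.5 buds (blue, n = 4 and 3). Filled points have an adjusted p under 0.05, dotted lines mark the median of all genes tested (0.23 and -0.02), and Foxp1, Foxp2, Foxp4 and Foxc1 lie right of 0 at E9.25 and left of 0 at E10.5.

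Whether the effect of Gli3 loss differed between the stages was tested with an interaction term in 1 model of the 14 libraries. It passed for 5 of the 8 members tested, against 2.13% of the 16368 genes tested, and the median gene stood at -0.24. Foxd1 entered this test through its E9.25 Gli3-/- libraries alone and Foxf1 through them and 1 WT library, so their calls are not read against that share. The genotype effect was smaller or turned at E10.5 by 3.59 (SE 0.50, limma adjusted p = 0.00179) for Foxf1, by 1.87 (SE 0.32, adjusted p = 0.00732) for Foxp2 and by 1.69 (SE 0.34, adjusted p = 0.0175) for Foxc1, each on the log2 scale. For Foxd1 the coefficient was -1.33 (SE 0.21, adjusted p = 0.00433), and with a pseudocount of 0.1 it was -1.27 (SE 0.50, adjusted p = 0.202). For Foxp4 it was -1.17 (SE 0.27, adjusted p = 0.0405), and the call was lost without any 1 of 10 of the 14 libraries (adjusted p up to 0.142), the library labelled E9.25 WT replicate 2 among them (adjusted p = 0.0948). The Foxc1 call was lost without E9.25 WT replicate 3 (adjusted p = 0.0529). Without E9.25 WT replicate 2 the coefficients were -3.27 for Foxf1, -1.59 for Foxp2, -1.67 for Foxc1 and -1.32 for Foxd1, all with an adjusted p under 0.05. In the same setting they were -1.31 for Foxp1, -0.26 for Foxc2 and 0.58 for Foxd2, none of which passed. Foxp1 (-1.68, adjusted p = 0.0837), Foxc2 (-0.13) and Foxd2 (0.63, adjusted p = 0.166) did not pass. Foxc2 was positive rather than negative under 5 other settings.

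Each genotype was next compared across the stages, using the same libraries again. In WT, 3 of the 4 members tested were higher at E10.5, but 48.7% of all 15444 genes tested also passed in that comparison, and the median gene was 0.34 higher. Foxp4 rose from a mean of 33 to 67.9 TPM (log2 fold change 1.04, SE 0.17, limma adjusted p = 0.00193). Foxc1 rose from 1.51 to 4.23 TPM (1.05, SE 0.21, adjusted p = 0.00485), and the call was lost under quantile normalization (adjusted p = 0.0628). Foxp2 was 2.02 and 4.03 TPM (0.81, adjusted p = 0.0327), a call lost in 11 of 15 other settings. With the trend over gene span removed the log2 fold change of Foxp2 was 0.095, and that of Foxp1 turned from 0.42 to -0.30, neither passing. Foxp1 depended on single libraries, at 0.79 without E9.25 WT replicate 1, where it passed (adjusted p = 0.0397), and 0.046 without replicate 2 (adjusted p = 0.892). Without replicate 2 the changes were 0.52 for Foxp2 (adjusted p = 0.0707), 1.03 for Foxc1 (adjusted p = 0.0074) and 0.88 for Foxp4 (adjusted p = 0.00188). Relative to the median gene the changes were 0.71 for Foxc1, 0.70 for Foxp4, 0.47 for Foxp2 and 0.079 for Foxp1.

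In Gli3-/-, 6 of the 8 members tested passed, 5 of them lower and 1 higher at E10.5, against 25.0% of all 15434 genes tested and a median change of 0.06. Foxf1 and Foxd1 passed the filter through E9.25 alone and Foxd2 through E10.5 alone, the stage where each was high, so these 3 had to differ and the count is not set against that share. Foxf1 fell by 4.44 on the log2 scale (SE 0.30, limma adjusted p = 4.71e-06), from a mean of 25 to 0.125 TPM. Foxd1 fell by 1.62 (adjusted p = 0.000114), Foxp1 by 1.27 (adjusted p = 0.00817), Foxp2 by 1.06 (adjusted p = 0.0015) and Foxc2 by 0.73 (adjusted p = 0.0203). Foxd2 was the exception and rose by 1.16 (SE 0.17, adjusted p = 0.000818), from 0.12 to 0.41 TPM at E9.25 to 1.46 to 2.10 TPM at E10.5. Foxc1 (-0.64, adjusted p = 0.0779) and Foxp4 (-0.13, adjusted p = 0.664) did not pass, and Foxp4 turned to 0.02 without Gli3-/- replicate 3 at E10.5. Foxc1 did pass under 5 other settings (median-of-ratios size factors, quantile normalization, the replicate block, the span trend removed, and without E10.5 Gli3-/- replicate 2), with adjusted p from 0.00954 to 0.0389. The Foxc2 call was lost without E10.5 Gli3-/- replicate 1 or replicate 3. All 8 flank, splanchnic and cardiac markers tested also fell between these groups, with a median of -3.36. These markers too passed the filter through E9.25 alone, so they had to differ. Their part in the falls of Foxf1 and Foxd1 was not tested.

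**Figure D4:**
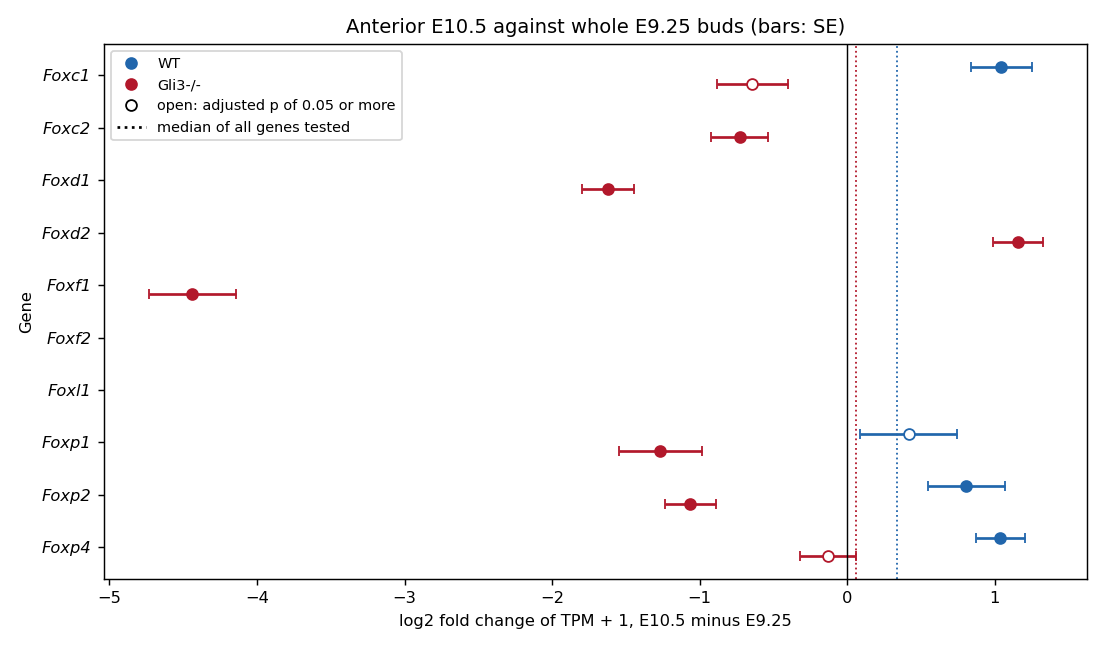
log2 fold change of TPM + 1, anterior E10.5 minus whole E9.25 buds, with its SE for each member that passed the filter in WT (blue, n = 4 and 3) and in Gli3-/- (red, n = 3 and 4). Filled points have an adjusted p under 0.05 and dotted lines mark the median of all genes tested (0.34 and 0.06). Foxc1, Foxp1 and Foxp2 lie right of 0 in WT and left of 0 in Gli3-/-, and Foxd2 lies right of 0 in Gli3-/-.

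By TPM, which is scaled for gene length, Foxp4 was the highest member in all 4 groups, with means of 33, 61.7, 67.9 and 55.7 TPM in E9.25 WT, E9.25 Gli3-/-, E10.5 WT and E10.5 Gli3-/-. Foxp1 came next in every group but E9.25 Gli3-/-, where Foxf1 (25 TPM) and Foxp1 (25 TPM) overlapped. Foxc1 and Foxp2 followed with overlapping ranges in all 4 groups. The 3 Foxp genes made up 90.4% to 94.3% of the summed TPM of the 10 genes in E9.25 WT, 93.4% to 95.2% in E10.5 WT and 90.1% to 92.5% in E10.5 Gli3-/-. In E9.25 Gli3-/- their share was 68.0% to 76.1%, below every other library. Foxl1 was last or tied for last in 3 groups and next to last, above Foxf2, in E9.25 WT.

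Genes whose levels across the 14 libraries were most like those of a called member were looked up among 16367 genes, as a description, since the libraries share stage, genotype and depth. For Foxf1 these were Gm22619, Gm22065 and Gm22191 (Pearson r = 0.989, 0.985 and 0.985), genes of 110 bases each that did not exceed 1.81 TPM, values that are uncertain because short genes can share reads with copies elsewhere. For Foxd1 they were the noncoding RNA D030025E07Rik (r = 0.952), P3h2 (0.943) and Foxf1 (0.941). D030025E07Rik was 0.08 to 0.60 TPM in E9.25 WT, 6.63 to 12.8 TPM in E9.25 Gli3-/- and 0 in all E10.5 libraries. For Foxc1 they were Peg13 (0.906), Jun (0.895) and Mfhas1 (0.883). For Foxp2 they were Sv2a (0.934), Dcaf12l1 (0.925) and Pdzd4 (0.924). For Foxp4 they were Pan2 (0.983), Fto (0.977) and Zfp526 (0.973). P3h2 was 4.45 to 7.92 TPM in the other groups and 10.9 to 17.9 TPM in E9.25 Gli3-/-.

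The neighbors within 100 kb of each member were also read out. Fendrr, a noncoding RNA on the opposite strand 1.28 kb from Foxf1, was 0.03 to 0.04 TPM in E9.25 WT and 1.80, 4.76, 3.41 and 1.10 TPM in E9.25 Gli3-/-, lowest in replicate 4 as Foxf1 was. Its log2 fold change of 1.75 did not pass (SE 0.32, limma adjusted p = 0.08). Fendrr entered this test through its Gli3-/- libraries alone and so had to differ. At E10.5 it stayed below 0.09 TPM. Mthfsd, 3.48 kb from Foxf1 on its other side, was 14.9 to 21.5 TPM in all libraries (log2 fold change 0.08 at E9.25). Gmds near Foxc1 was 6.17 to 12.4 TPM (0.31, adjusted p = 0.286 at E9.25). The genes near Foxd1 that reached 1 TPM were Btf3, Ankra2, Utp15, Gm9828 and Gm2445, of which the first was highest at 912 to 1437 TPM. Near Foxd2, Stil (7.27 to 20.6 TPM), Cmpk1 (39.7 to 54.7) and Gm24045 (0 to 2.14) reached 1 TPM beside Foxd2os. Near Foxp4 these were Mdfi (11.4 to 57.4 TPM), Tfeb (0.23 to 1.89) and Gm15556, which overlaps Foxp4 (0 to 1.22). None of the genes near Foxp1, Foxp2 or Foxf2 reached 1 TPM. Gm20388, which overlaps Foxf1, Foxc2 and Foxl1, was listed at 0 in all libraries.

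Among the 34 other forkhead genes, 12 passed the filter in each of the comparisons of Gli3-/- with WT, and limma called none in either genotype comparison or, of 13 tested, in the interaction, with an unadjusted p under 0.05 for 4, 0 and 4 of them. Their median log2 fold change was 0.50 in E9.25 buds and 0.03 in E10.5 buds, beside 0.23 and -0.02 over all genes tested. Over all genes, limma gave an unadjusted p under 0.05 for 3247 of 14760, 3061 of 15654 and 3443 of 16368 in the same 3 tests. Of the 4 HH response genes, 2 passed the filter at E9.25 and 1, Ptch1, was higher in Gli3-/- (2.28, SE 0.32, adjusted p = 0.0309), and 2 of 4 were higher at E10.5, Ptch1 among them (1.58, SE 0.12, adjusted p = 0.000287). Foxf1, Foxd1 and Foxc1 were also called at E9.25, but these calls have limits. Foxd1 passed the filter there through its Gli3-/- libraries alone and so had to differ, Foxf1 needed them, and Foxc1 kept its call in 8 of 16 other settings. At E10.5 these 3 genes were overlapping (Foxc1) or below the filter (Foxf1 and Foxd1). Though below the filter, Foxd1 was still higher in every E10.5 Gli3-/- library (0.40 to 0.46 TPM) than in any WT library (0 to 0.06 TPM).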

How the data were processed

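The authors sequenced single reads of 100 bases. They used HISAT2 for alignment and DESeq2 for their own comparisons, and the submitters' notes give the build mm10. The deposited tables hold coverage (mean read depth per base, a signal), FPKM and TPM as the authors computed them, without counts. The tool that made these values is not given in the sources used here.

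TPM was summed over lines of the same gene ID. On log2(TPM + 1), limma 3.58.1 (R 4.3.3; lmFit, then eBayes with a trend; two-sided) compared groups for genes reaching 1 TPM in 3 or more of the libraries involved. Benjamini-Hochberg adjustment ran over all genes tested, with a threshold of 0.05. DESeq2 could not be used here without counts. Depth came from the modal quotient of coverage and FPKM. Reads behind a value are coverage times span over read length, for genes without introns. The script was tested on simulated data. Summaries used Python 3.11.15 and pandas 2.3.3.

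The members, marker lists and tests were chosen with earlier results of these data known. All 10 members are named, and beside them the 3 genes most correlated with each member called in a genotype comparison or the interaction, genes within 100 kb, other forkhead genes called, Gli3 and Ptch1. Gata4, Gata6, Hand1, Isl1, Tbx20, Tcf21, Nkx2-5 and the surface ectoderm markers were named after their values were seen. The settings varied were the pseudocount (0.1), the filter (none, or 5 TPM), the eBayes trend, the scaling (median-of-ratios size factors, quantile normalization), blocks of replicate number, 1 model of all 14 libraries, and each library left out. A fit without the dependence of each library on gene span was added after seeing the data. Upstream sequences are from RefSeq (GRCm38.p6).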

Additional observations from a re-analysis of the deposited data

Results flagged for a closer look

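The interaction term of the limma model over all 14 libraries passed for 5 of the 8 forkhead genes tested (adjusted p under 0.05), against 2.13% of all genes. Foxd1 entered through its E9.25 Gli3-/- libraries alone and Foxf1 through them and 1 WT library, so the count is not read against that share. With a pseudocount of 0.1 Foxd1 did not pass (adjusted p = 0.202), and its group means were 13.1-fold apart at E9.25 and 12.5-fold at E10.5. The Foxp4 call was lost in most fits with 1 library left out. The genotype effect at E10.5 minus that at E9.25, on the log2 scale, was -3.59 for Foxf1, -1.87 for Foxp2, -1.69 for Foxc1, -1.33 for Foxd1 and -1.17 for Foxp4. All 5 lie below the median gene, which stood at -0.24. Stage goes with the dissection in this design, whole buds against the anterior portion, and the 2 cannot be told apart. Within the groups of 4 libraries, no member had a library far enough from the others to be listed, over 18 groups examined.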

How the results depend on the processing

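Depth limits the genes below 1 TPM, and 3 or 4 pools per group limit all comparisons. Of the 3 forkhead calls at E9.25, the count was 0 without a filter, 5 in 1 model of all 14 libraries and 0 to 4 with 1 library left out (4 without WT replicate 1). The single call at E10.5 became 0 with a filter of 5 TPM and under quantile normalization, 2 with eBayes without a trend, and 0 to 1 with 1 library left out. The 3 calls between stages in WT became 6 without a filter, 1 with a filter of 5 TPM, 1 under quantile normalization and 2 to 4 with 1 library left out. The 6 calls in Gli3-/- became 3 with a filter of 5 TPM, which fewer members pass, 7 under both other scalings and with the span trend removed, and 4 to 6 with 1 library left out. The 5 interaction calls became 3 without a filter and 3 to 6 with 1 library left out. Over all genes, the 20 calls at E9.25 became 1185 in the 14-library model, and the 747 at E10.5 became 391 without a filter. Where not given, the cause was not tested.

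With replicate numbers as a block, the members called were 2 at E9.25, 0 at E10.5 (by the titles' numbers and by those of the deposited tables), 2 between stages in WT, 7 in Gli3-/- and 1 in the interaction. Over all genes the block gave 66 calls at E9.25, 164 at E10.5 (498 with the table numbers) and 42 in the interaction. No source states that same-numbered libraries are pairs. The correlations of their deviations ran from -0.20 to -0.16 at E9.25, with a mean of 0.06 for other pairs. At E10.5 they ran from -0.18 to 0.15 (other pairs 0.02) and, by the table numbers, from 0.05 to 0.32 (other pairs -0.06). Whether the numbers mark true pairs was not tested.

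Direction turned for Foxp1 between stages in WT (-0.0066 under quantile normalization and -0.30 with the span trend removed) and for Foxp4 between stages in Gli3-/- (-0.25 to 0.021 with 1 library left out). It also turned for Foxc2 in the interaction (0.11 with a pseudocount of 0.1, 0.14 under quantile normalization, 0.048 with the span trend removed, and -0.30 to 0.049 with 1 library left out). None of these values was called. Foxf1 kept its call in all 16 other settings between stages in Gli3-/- and all 22 in the interaction. Between stages it passed the filter through E9.25 alone, where it was high, so keeping that call was largely fixed beforehand. In the interaction it entered through the E9.25 Gli3-/- libraries and 1 WT library.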
